A study of Mus musculus with 6 samples.

Results

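The 10 ERK feedback regulators examined here are the Sprouty genes Spry1, Spry2 and Spry4, the Spred genes Spred1 and Spred2, the phosphatase genes Dusp4, Dusp5 and Dusp6, and the Ets factor genes Etv4 and Etv5. They were chosen by name as a transcriptional readout of Fgf and Egf receptor signalling, with earlier results of these data known. All 10 were found among the 43274 genes of the deposited table and passed the filter on low counts. RNA was sequenced from bulge stem cells (SCs) of the hair follicle, sorted from mouse epidermis at postnatal day 21 as CD34-positive cells with high surface α6 integrin. The 3 control libraries came from mice with 1 floxed Ilk allele and Cre under the keratin 5 promoter, labelled ILK +/-, and the 3 ILK-K5 libraries from mice with 2 floxed alleles and the same Cre, labelled ILK -/-. This promoter drives deletion throughout the epidermis from development onwards and not in the bulge alone, and all mice, controls included, carried Cre. The cDNA was amplified before library preparation. The number of mice behind each library is not given in the sources used here, so that p-values measure the spread between libraries.

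Fgf and Egf receptors activate the kinase cascade Ras, Raf, Mek and Erk, and active Erk drives transcription of its own inhibitors. Sprouty and Spred proteins dampen the cascade at the level of Ras and Raf. Dusp6 removes the activating phosphates from Erk in the cytoplasm, and Dusp4 and Dusp5 act on MAP kinases in the nucleus. Etv4 and Etv5 are Ets transcription factors of the PEA3 group whose genes are silenced by the repressor Capicua (Cic) until Erk inactivates it. Because these transcripts are made soon after Erk is activated and decay quickly, their levels are widely read as a gauge of the pathway, and in skin this pathway is known for its part in keratinocyte proliferation and hair growth.

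To show what these genes look like at their start sites, stretches of 3 promoters are printed from RefSeq's windows for GRCm38.p6, which cover 250 bases before a start and 50 after it. Windows were read for 7 members, 2 of them for Etv5, which makes 8 windows, and those of Spry4, Dusp4 and Etv4 are not shown. Each printed stretch runs 5′ to 3′ on the strand of its gene, from 250 bases before the start to 10 after it. Capitals mark matches to words searched on both strands. The Capicua words were TGAATGAA, TGAATGGA, TCAATGAA and TCAATGGA, and the last 2 were added after the windows had been read. No matches in the members' windows overlapped. The other words were CCGGAAG and AGGAAGT for Ets factors, TGAGTCA for AP-1 and TGACGTCA for CREB.
Dusp6 (chr10:99262981-99263240, plus strand): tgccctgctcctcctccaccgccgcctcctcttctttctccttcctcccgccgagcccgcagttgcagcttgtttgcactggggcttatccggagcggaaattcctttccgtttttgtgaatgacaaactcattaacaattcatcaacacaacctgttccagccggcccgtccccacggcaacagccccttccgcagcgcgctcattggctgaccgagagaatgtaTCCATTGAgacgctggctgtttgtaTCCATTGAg
Spry2 (chr14:105896810-105897069, minus strand): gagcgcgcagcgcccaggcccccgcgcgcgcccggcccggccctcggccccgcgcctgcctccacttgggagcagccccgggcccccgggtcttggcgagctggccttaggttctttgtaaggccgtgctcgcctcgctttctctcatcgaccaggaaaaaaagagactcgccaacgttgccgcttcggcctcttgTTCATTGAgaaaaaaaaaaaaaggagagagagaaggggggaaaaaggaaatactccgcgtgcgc
Etv5 (chr16:22438359-22438618, minus strand): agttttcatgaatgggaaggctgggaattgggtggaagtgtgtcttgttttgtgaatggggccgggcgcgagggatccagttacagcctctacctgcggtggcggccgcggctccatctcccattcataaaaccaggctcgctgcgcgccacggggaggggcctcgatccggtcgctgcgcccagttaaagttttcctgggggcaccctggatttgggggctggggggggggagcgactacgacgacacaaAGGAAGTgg

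The Dusp6 window held the Capicua word TCAATGGA at 2 positions, both on the opposite strand, beginning at -24 and 2 as counted along the gene from its start. The Spry2 window held TCAATGAA once, at -54 on the opposite strand. Of all 32851 windows in the table, 3.84% held at least 1 of the 4 Capicua words and 0.183%, or 60 windows, held at least 2. Of the first 2 words, TGAATGAA (1.3%) and TGAATGGA (1.21%), neither was in any of the 8 windows, and all matches in Dusp6 and Spry2 were to the words added later, so that these shares do not show whether the matches are unusual. The word AGGAAGT stood in the windows of Dusp5, Spred2 and the second start of Etv5, and in 9.35% of all windows. The second start of Etv5 lies inside the gene and outside the exons that GENCODE annotates, and the window at its first start held none of the words searched. CCGGAAG (8.86% of all windows), TGAGTCA (5.20%) and TGACGTCA (1.79%) were in none of the 8 windows. These matches describe the sequence only, and binding was not measured.

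Reads counted on genes numbered between 8228019 and 11969072 per library, so that 1 read stood for 0.726 to 1.52 normalized counts, the reads per gene divided by the size factor of the library. The targeted gene itself does not check the labels, since it was not called, and the reason was not tested. Ilk shares 89.7% of its exon bases with exons of Taf10 or Rrp8 on the opposite strand. Its normalized counts were 10.6, 16.7 and 38.5 in control replicates 1 to 3 and 14.8, 30.9 and 29.2 in ILK-K5 replicates 1 to 3 (log2 fold change 0.30, adjusted p = 0.933). The libraries of replicate 1 carry another number in their column names than those of replicates 2 and 3, which is not explained, and for the members the ratio of ILK-K5 to control is given by this number. Markers of basal keratinocytes were present in all libraries, with summed normalized counts of 74529 to 114367 in control and 72997 to 85803 in ILK-K5, and none of the 8 was called. Of the 8 bulge markers, Cd34, the antigen used for the sort, fell (log2 fold change -1.90, adjusted p = 0.0239), and Krt15, Sox9 and Lhx2, the most abundant per length, did not pass the test.

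Markers of other cells moved with the genotype. Of the 15 macrophage markers, 14 were tested and all 14 were called higher, among them Cd68, Csf1r, Adgre1, Itgam, Mrc1, C1qa, Lyz2, Fcgr1 and Tyrobp, and their list summed to between 417 and 629 normalized counts in control and between 18161 and 24305 in ILK-K5 libraries. Fcgr1 was at 0 in all controls. The general leukocyte genes Ptprc, Laptm5 and Coro1a rose as well, from sums of 27.4 to 87.1 to sums of 1808 to 2632. Cd2 was the 1 called of 6 tested T cell markers, whose sums were 182 to 190 in control and 315 to 395 in ILK-K5, and Col3a1 the 1 called of 3 tested fibroblast markers, with sums of 631 to 752 and 1442 to 2439. Lor was called lower among 8 markers of differentiated keratinocytes (sums of 3105 to 17316 and 4175 to 6902), and none of the 2 endothelial (58.8 to 166 and 75.6 to 92.2) or 4 melanocyte markers tested (83.6 to 173 and 77.1 to 224) was called. Macrophages and fibroblasts also use the ERK pathway. In these bulk libraries a change in the share of a cell type and a change of RNA within its cells cannot be told apart, and the part of these cells in the values that follow was not tested.

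Etv5 was the 1 member that passed the test, and it was about 5.09-fold higher in the ILK-K5 libraries (95% confidence interval 2.88 to 9.0). Dusp6, Spry4 and Etv4 had mean differences of similar size but did not pass, and the remaining Sprouty, Spred and Dusp genes differed less or varied more between libraries. Genotypes were compared with limma, over 16368 genes with enough reads, on the log2 scale after adding 1 to each normalized count, with p adjusted by Benjamini-Hochberg and calls made at 0.05 or below. Of all genes tested, 2.93% were called higher and 0.599% lower in ILK-K5, 3.53% in all, against 1 and 0 of the 10 members. On the recovered reads edgeR called the same number of members, with 2.58% of all genes higher and 0.532% lower, and DESeq2 called 3 members higher (Etv5, Dusp6 and Spry4), with 4.72% of all genes higher and 1.71% lower. In 6 of the 10 members every ILK-K5 library lay above every control library, as was so for 10.9% of all genes, and in 4 the genotypes overlapped. None lay below the controls in every library, where 6.95% of all genes did. At an unadjusted p under 0.05 there were 4 members (Etv5, Dusp6, Spry4 and Etv4) and 12.3% of all genes. Spry4 and Etv4 are also among the 6 members above the controls in every library. They averaged only 9.53 and 5.55 normalized counts in control, against 47.3 and 29.0 in ILK-K5. Both thus passed the filter, a mean of 10 over all libraries, only through the genotype where they are high, so that these counts are not independent of it. The members' median log2 fold change was 0.98, with 9 above and 1 below 0, where the median of all genes was 0.0054. The members' median was 0.62 in the fits of edgeR and DESeq2 alike. Among genes averaging 50 or more, which 6 members reached and Spry4 and Etv4 did not, it was 0.56.

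**Figure D1:**
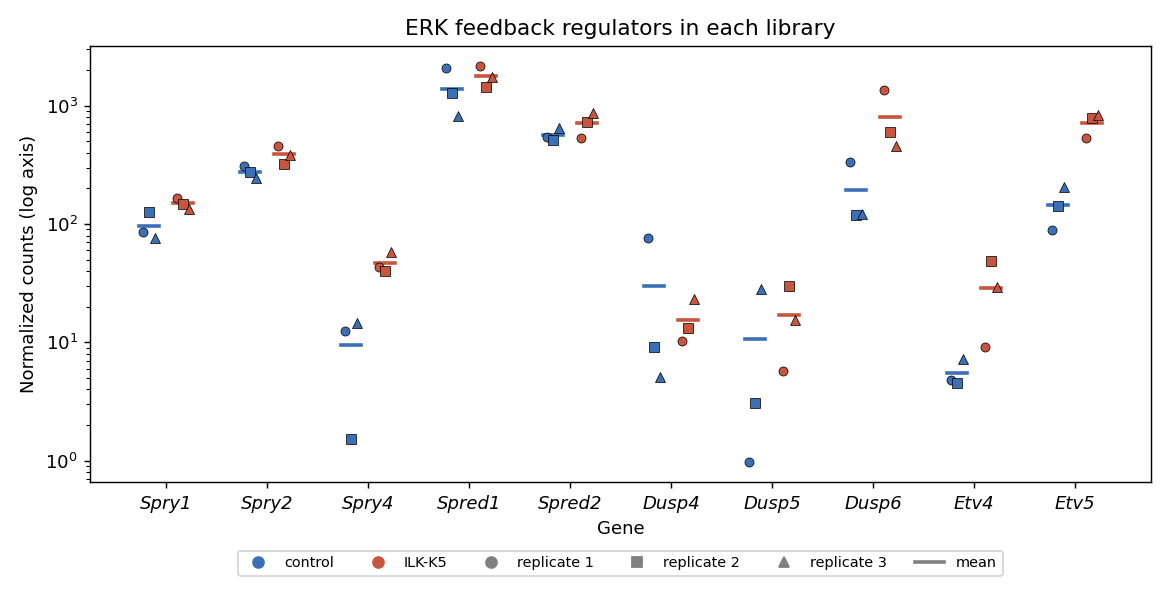
Normalized counts (log axis) of the 10 members in the 3 control and 3 ILK-K5 libraries; points are libraries, shaped by replicate, and bars are means. The ILK-K5 points lie above all control points for Spry1, Spry2, Spry4, Dusp6, Etv4 and Etv5. They span 529 to 837 against 88.8 to 205 for Etv5, and 40.1 to 58.4 against 1.52 to 14.5 for Spry4.

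The Etv genes encode activators and are the transcriptional end of the pathway. Etv5 lies on chromosome 16 from 22381309 to 22439719, on the minus strand, and none of its exons are shared with another gene. Its normalized counts were 88.8, 141 and 205 in control replicates 1 to 3 and 529, 781 and 837 in ILK-K5 replicates 1 to 3. The lowest ILK-K5 library held more than the highest control library, and in both genotypes replicate 1 was lowest. Control averaged 145 ± 58.0 and ILK-K5 716 ± 164 normalized counts (SD, n = 3 libraries each), which gave a log2 fold change of 2.35 with standard error 0.36 and adjusted p = 0.00749 in limma. It was called in all 6 fits that each left out a library, with adjusted p between 0.00474 and 0.0481, and in all 12 other alternatives. The ratio of ILK-K5 to control was 5.96 in replicate 1 and 4.68 over replicates 2 and 3.

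Etv4, on chromosome 11 from 101769742 to 101785371, was much scarcer. It had 4.82, 4.56 and 7.26 normalized counts in the controls and 9.11, 48.6 and 29.2 in ILK-K5 libraries. All ILK-K5 libraries lay above the controls, but ILK-K5 replicate 1 only narrowly so, and the control values rest on 5, 3 and 10 reads. Etv4 differed by 1.94 on the log2 scale with standard error 0.77 and adjusted p = 0.313, and a 95% confidence interval from 0.22 to 3.67. Its mean ratio was 1.89 in replicate 1 and 6.58 over replicates 2 and 3. Etv4 was called in none of the alternatives, among which DESeq2 gave the lowest adjusted p of 0.0920.

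Among the phosphatases, Dusp6 had the most reads. It lies on chromosome 10 from 99263231 to 99267489 and overlaps no other exon. Its normalized counts were 336, 120 and 121 in control and 1354, 598 and 461 in ILK-K5 replicates 1 to 3. Replicate 1 was the highest library of both genotypes, and every ILK-K5 library exceeded every control. Control averaged 192 ± 124 and ILK-K5 804 ± 481 (SD, n = 3 libraries each), which differed by 2.08 on the log2 scale (standard error 0.51), or 4.22-fold with a 95% confidence interval from 1.90 to 9.36. Its adjusted p of 0.0638 lay just above the threshold. Within the libraries that share a column number the ratios were alike, 4.03 in replicate 1, with a single library per genotype, and 4.39 over replicates 2 and 3 (adjusted p = 0.0134 in replicates 2 and 3 only). A term for the column number gave an adjusted p of 0.000442, and DESeq2 on the recovered reads 0.00649, so that both called Dusp6 higher, whereas edgeR did not (0.0897). Without control replicate 1 it was called as well (0.0146), and in the other 5 fits that each left out a library the adjusted p reached 0.272.

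Dusp4, on chromosome 8, had 76.2, 9.12 and 5.08 normalized counts in control and 10.2, 13.1 and 23.4 in ILK-K5 replicates. Control replicate 1 was the highest of all, while the other 2 controls were the lowest, so the genotypes overlapped. The log2 fold change was -0.10 with a 95% confidence interval from -2.25 to 2.05, and it was 1.0 without control replicate 1, -0.95 in edgeR and -1.0 in DESeq2. The ratio was 0.134 in replicate 1 and 2.57 over replicates 2 and 3, so that the direction turned with the column number. Dusp5, on chromosome 19, had 0.965, 3.04 and 28.3 normalized counts in control and 5.69, 30.1 and 15.6 in ILK-K5 replicates. Replicate 1 was the lowest in each genotype, and 22.1% of the exon bases of Dusp5 are shared with a gene on the opposite strand. Its log2 fold change was 1.3 (95% confidence interval -1.19 to 3.79, adjusted p = 0.782), an interval that leaves both a fall and a large rise possible. It was 0.47 without control replicate 1, 2.42 without control replicate 3, 0.60 in edgeR and 0.62 in DESeq2. The ratio was 5.90 in replicate 1, where the control held 1 read, and 1.46 over replicates 2 and 3.

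The Sprouty genes encode membrane-associated inhibitors of receptor signalling and were higher in every ILK-K5 library than in any control. Spry4, on the minus strand of chromosome 18 from 38586247 to 38601415, had 12.5, 1.52 and 14.5 normalized counts in control and 43.3, 40.1 and 58.4 in ILK-K5 replicates. The 3 ILK-K5 values lay close together, and the lowest control rests on 1 read. Spry4 differed by 2.56 on the log2 scale with standard error 0.77 and adjusted p = 0.144, and a 95% confidence interval from 0.82 to 4.30. DESeq2 called it higher (adjusted p = 0.0357) and edgeR did not (0.191), nor did a fit with a term for the column number (0.0688). The ratio was 3.45 in replicate 1 and 6.15 over replicates 2 and 3. The value depended on that control library, since without control replicate 2 the log2 fold change was 1.72.

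Spry1 and Spry2 were more abundant and differed less. Spry1, on chromosome 3 from 37639947 to 37644598, had 85.9, 128 and 76.2 normalized counts in control and 166, 147 and 135 in ILK-K5 replicates, a log2 fold change of 0.65 (adjusted p = 0.533, 95% confidence interval -0.12 to 1.42). The gene model Gm42922 on the opposite strand covers 24.4% of its exon bases. Spry2, on chromosome 14 from 105891947 to 105896819, had 308, 278 and 247 in control and 458, 322 and 386 in ILK-K5 replicates, with a log2 fold change of 0.47 (adjusted p = 0.603, 95% confidence interval -0.14 to 1.09). For both genes the closest libraries of the 2 genotypes differed by less than the spread within a genotype, and neither was called in any of the 18 alternatives. The ratios in replicate 1 and over replicates 2 and 3 were 1.94 and 1.38 for Spry1, and 1.49 and 1.35 for Spry2.

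The Spred genes, which encode membrane-bound relatives of the Sprouty proteins that recruit the Ras inhibitor neurofibromin (Nf1), overlapped between the genotypes. Spred1, on chromosome 2 from 117121374 to 117182279, had 2088, 1291 and 820 normalized counts in control and 2181, 1447 and 1766 in ILK-K5 replicates. Replicate 1 was the highest in both genotypes, and the log2 fold change was 0.44 (95% confidence interval -0.37 to 1.26, adjusted p = 0.769). Spred2, on chromosome 11 from 19924375 to 20024026, had 543, 514 and 647 in control and 536, 731 and 862 in ILK-K5 replicates, with a log2 fold change of 0.30 (95% confidence interval -0.32 to 0.92, adjusted p = 0.801). In replicate 1 the ratios were 1.04 for Spred1 and 0.987 for Spred2, and over replicates 2 and 3 they were 1.52 and 1.37. The intervals leave room for a rise of up to 2.39-fold for Spred1 and 1.89-fold for Spred2.

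**Figure D2:**
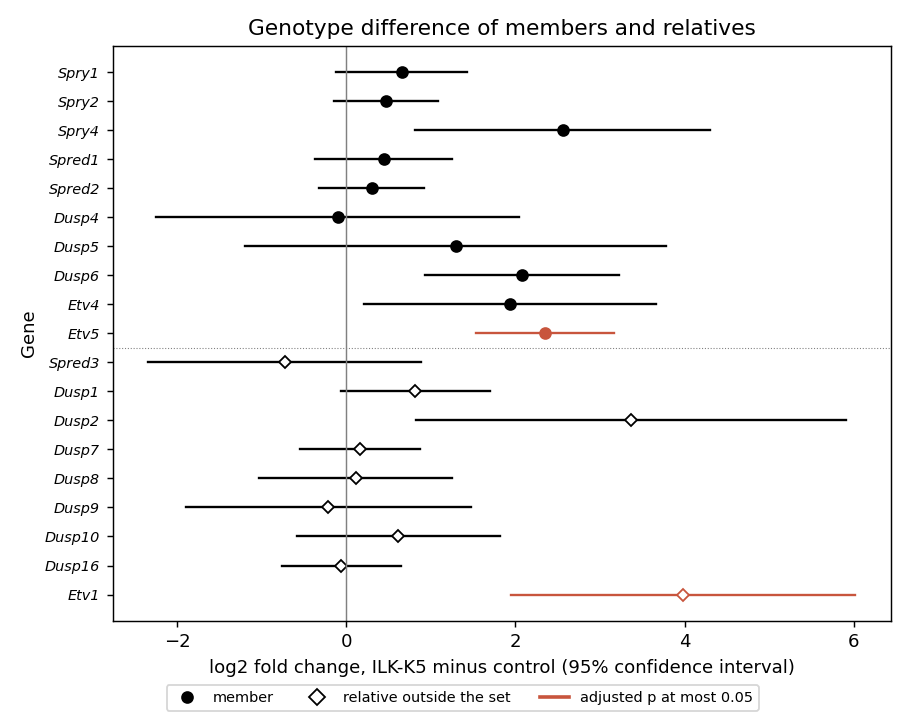
Log2 fold change (ILK-K5 minus control) with its 95% confidence interval from limma for the 10 members and 9 relatives. Etv5 (2.35) and Etv1 (3.98) are the 2 genes with an adjusted p of at most 0.05, and the fitted value of Etv1 depends on the pseudocount because its controls had at most 2 reads.

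Levels of different genes were set side by side as FPKM, the deposited value per transcript length, which describes levels and was not tested. In the control libraries Spred1 was the most abundant member with a mean of 21.2 FPKM. It was followed by Spry2 (13.7), Spred2 (12.6), Dusp6 (7.05), Etv5 (3.62), Spry1 (3.41), Dusp4 (1.13), Dusp5 (0.447), Spry4 (0.213) and Etv4 (0.183). The ranges of all neighbours in this order overlapped. In the ILK-K5 libraries the order was Dusp6 (29.5 FPKM), Spred1 (27.2), Spry2 (19.1), Etv5 (17.9) and Spred2 (15.8). Then came Spry1 (5.27), Spry4 (1.06), Etv4 (0.957), Dusp5 (0.710) and Dusp4 (0.583). Here the ranges of the first 5 genes overlapped from one to the next, Spry1 stood apart from those above and below it, and the last 4 overlapped again. Single libraries set some of these ranks. By median, Spred1 (26.7 FPKM) stood above Dusp6 (22.0) in ILK-K5, and in control Spry4 (0.280) and Etv4 (0.159) stood above Dusp5 (0.126).

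**Figure D3:**
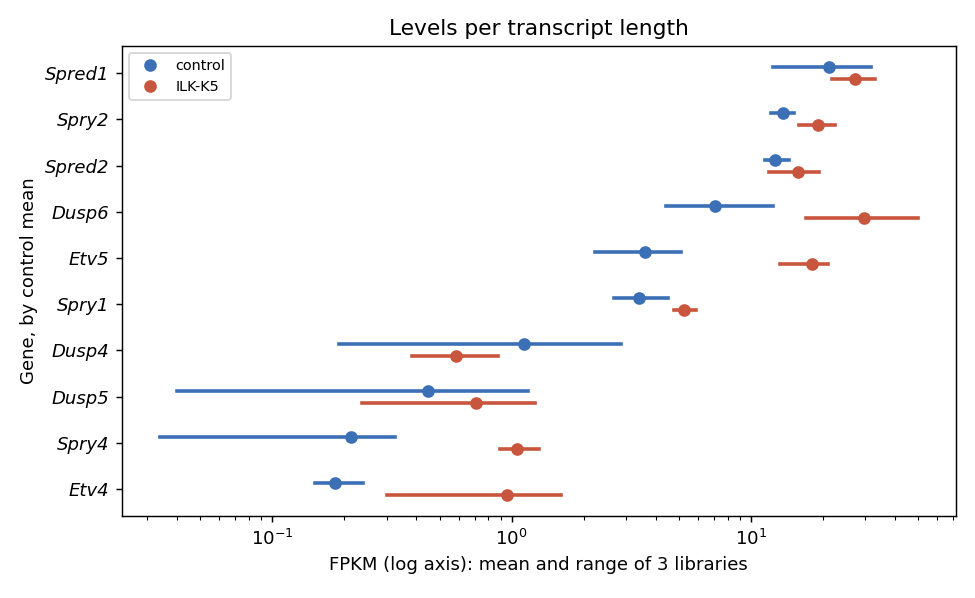
FPKM (log axis) of the 10 members, ordered by control mean; points are means and lines the range of 3 libraries per genotype. Spred1, Spry2 and Spred2 lead in control with 12.6 to 21.2 FPKM, and Dusp6 has the highest ILK-K5 mean with 29.5.

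The nearest relatives of the members were mixed. Of 10 further Sprouty, Spred, Dusp and Etv genes, 9 were measured and tested, and 1 was called higher. The median of their log2 fold changes was 0.17. The called gene was Etv1, the remaining PEA3-type factor, which had 0, 0 and 1.45 normalized counts in control and 33.0, 18.5 and 13.6 in ILK-K5 replicates. Since no control library held more than 2 reads, it was at least 6.76-fold higher (adjusted p = 0.0464), the bound being taken against 3 reads per control library. Among the fits that left out a library it was tested in 4 and called in 1, that without control replicate 3 (adjusted p = 0.0477), and in the others the adjusted p reached 0.214. Dusp2, a nuclear phosphatase known from immune cells, had 0, 31.9 and 10.9 in control and 120, 63.2 and 54.5 in ILK-K5 replicates (adjusted p = 0.202). Dusp1, an immediate early gene, was the most abundant relative, with 341 FPKM on average in control and 562 FPKM in ILK-K5 (log2 fold change 0.82, adjusted p = 0.465). Spred3, Dusp7, Dusp8, Dusp9, Dusp10 and Dusp16 overlapped between the genotypes, with log2 fold changes from -0.73 to 0.62.

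Further up the pathway, 5 ligands passed the test and no receptor or cascade gene did. Of 13 tested Fgf, Egf and Met ligands of the 18 listed, 2 rose and 3 fell. Tgfa, an Egf receptor ligand, had 152, 60.8 and 79.1 normalized counts in control and 493, 325 and 334 in ILK-K5 replicates (log2 fold change 2.05, adjusted p = 0.0226). Nrg1, which binds Erbb3 and Erbb4, had 25.1, 0 and 10.2 in control and 338, 210 and 147 in ILK-K5 replicates (log2 fold change 5.05, adjusted p = 0.0315). The Egf receptor ligands Ereg and Btc fell, with log2 fold changes of -2.98 (adjusted p = 0.0312) and -2.89 (adjusted p = 0.0409), and Fgf18 fell from between 59.3 and 263 to between 0 and 3.86 normalized counts. Fgf18 was called in all 6 fits that each left out a library, Nrg1 in 3, Btc in 2, and Tgfa and Ereg in 1 each. For Tgfa and Ereg that 1 fit was without control replicate 1. For Btc the 2 were those without control replicate 1 and without ILK-K5 replicate 1. Nrg1 was lost without any one of the ILK-K5 replicates. The adjusted p in the left-out fits reached 0.0955 for Tgfa, 0.122 for Nrg1, 0.166 for Ereg and 0.196 for Btc. Fgf1, the ligand with the highest FPKM, differed by -0.95 (adjusted p = 0.259) and Hbegf by 0.92 (adjusted p = 0.270) on the log2 scale.

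None of the 8 tested receptors of 10 was called, and their median log2 fold change was 0.03. Egfr, Fgfr2 and Fgfr1 were the most abundant per length, with 81.8, 44.0 and 15.4 FPKM in control and 60.4, 30.7 and 19.5 FPKM in ILK-K5, and adjusted p-values of 0.817, 0.490 and 0.746. All 20 adaptors, kinases and Ras regulators were tested and none was called, with a median of 0.27 and 15 above 0. Nras and Mapk3, the most abundant of them per length, had log2 fold changes of 0.27 and 0.39 (adjusted p = 0.848 and 0.866). At an unadjusted p under 0.05 were Map2k1 (Mek1) and Nf1 (adjusted p = 0.248), as were 12.3% of all genes tested. Map2k1 had 207, 175 and 223 normalized counts in control and 379, 396 and 324 in ILK-K5 replicates (adjusted p = 0.163). Both genes were picked here after their values were seen. The repressors that Erk inactivates, Cic and Erf, overlapped between the genotypes, with log2 fold changes of 0.28 (95% confidence interval -0.43 to 1.0) and -0.11 (95% confidence interval -1.46 to 1.23).

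Other genes known to follow Erk activity did not move together. Of 14, all tested, 1 was called higher and none lower, and their median log2 fold change was 0.23, with 9 above and 5 below 0. The called gene was Plaur, the urokinase receptor, which also marks activated myeloid cells, with 0, 0 and 2.90 normalized counts in control and 128, 170 and 146 in ILK-K5 replicates (log2 fold change 6.55, adjusted p = 0.00124). It was called in all 6 fits that each left out a library. Fos, Egr1 and Ier3, the most abundant per length, had log2 fold changes of 0.71, 0.55 and 1.12 (adjusted p = 0.807, 0.835 and 0.153). Fos and Egr1 were lower in ILK-K5 in replicate 1, with ratios of 0.717 and 0.587, and higher over replicates 2 and 3, with ratios of 2.40 and 2.18. The 4 genes Phlda1, Ccnd1, Epha2 and Epha4 are often read together with Spry and Dusp genes, and they are named here after their values were seen. Phlda1 differed by 0.90 on the log2 scale (adjusted p = 0.286), with all ILK-K5 libraries above the controls. Ccnd1 had 1779, 1177 and 1181 normalized counts in control and 684, 751 and 583 in ILK-K5 replicates (log2 fold change -1.01, adjusted p = 0.0899), and Epha4 was also lower in every ILK-K5 library (log2 fold change -0.74, adjusted p = 0.248). The libraries of Epha2 overlapped.

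**Figure D4:**
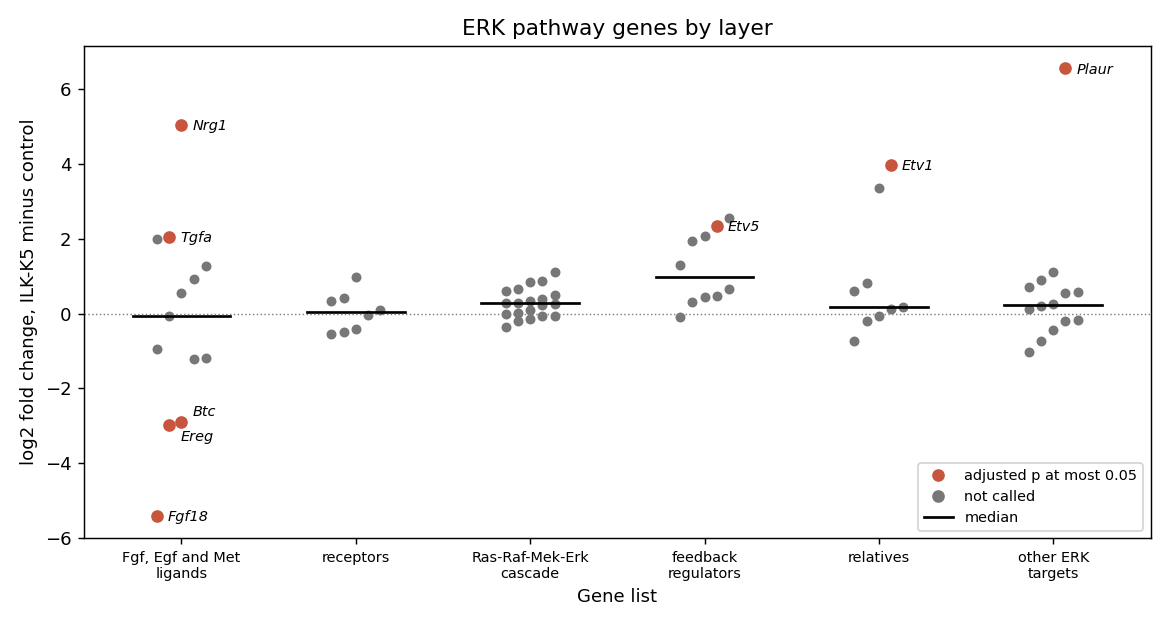
Log2 fold change (ILK-K5 minus control) of every tested gene of 6 lists along the ERK pathway; each point is a gene, bars are medians, and named genes have an adjusted p of at most 0.05. The 10 feedback regulators have the highest median (0.98), and the ligands the widest spread, from -5.41 for Fgf18 to 5.05 for Nrg1.

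Patterns over the 6 libraries were compared for Etv5 and Dusp6, the members with the smallest p-values, by the mean absolute difference of log2 values, each centred on its own mean. Closest to Etv5 were Stk17b, which encodes an apoptosis-related kinase (mean difference 0.18), Parp14, an interferon-responsive ADP-ribosyltransferase (0.19), and Plac9b (0.21). Stk17b had 80.1, 161 and 271 normalized counts in control and 627, 784 and 769 in ILK-K5 replicates. Closest to Dusp6 were Stk10, a kinase abundant in lymphocytes (0.18), and Dhrs9, a retinol dehydrogenase (0.21). Stk10 had 73.3, 31.9 and 26.1 normalized counts in control and 342, 174 and 149 in ILK-K5 replicates. Like Dusp6, both Stk10 and Dhrs9 were highest in replicate 1 of each genotype.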

How the data were processed

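Bulge SCs were sorted into TRIzol LS, and cDNA was amplified (Ovation RNA-Seq System V2) and made into Nextera XT libraries, a preparation that does not mark strand. The authors removed adapters and ribosomal reads and aligned to GRCm38. The submitters' processing notes name TopHat2 2.0.14, Bowtie2 2.2.4 and DESeq2 1.6.3, and the program that counted reads per gene is not given in the sources used here. The deposited signal values are reads per gene divided by 1 DESeq2 size factor per library: 100% of values were whole multiples (within 0.01 reads) of 1 step, so that reads were recovered. The deposited FPKM equal these values times 1 constant per gene. The authors' own comparison tables (mean signal, log2 fold changes, scores and p-values) were not used. Symbols, coordinates and exons came from GENCODE M21 (GRCm38), which matched 42107 of 43274 gene IDs and 145 of 147 listed genes.

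Genotypes were compared with limma 3.58.1 (eBayes with trend, two-sided, R 4.3.3) after adding 1 to each normalized count and taking log2, for genes averaging 10 or more over the 6 libraries, at a Benjamini-Hochberg adjusted p of at most 0.05. Fold changes are on this scale, and those of low genes depend on the added 1. With 3 libraries per genotype an exact permutation test of 1 gene cannot reach 0.05. The steps were tested on simulated counts with the same dispersion for all genes and no replicate effect, a setting simpler than these data. Python 3.11.15, pandas 2.3.3 and matplotlib 3.10.9 made tables and plots. Members, lists and alternatives were chosen with earlier results of these data known. The text names all members and relatives, of the other pathway lists each called gene and the 3 highest in FPKM, of the marker lists mainly the called genes, and for the 2 members of smallest p the 3 genes nearest in pattern. A few genes that this rule would name are not reported here.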

Additional observations from a re-analysis of the deposited data

How the results depend on the processing

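The rise of Etv5 was called in all 18 alternatives, with log2 fold changes between 2.04 and 2.64. No member was called lower in any of them. Under a pseudocount of 5 the members' median log2 fold change was 0.69, for genes averaging 50 or more, which 6 members reached, 0.56, under quantile normalization 0.61, under edgeR 0.62 and under DESeq2 0.62. DESeq2 called 3 members (Etv5, Dusp6 and Spry4) and 772 genes higher and 280 lower over all genes, against 479 and 98 in limma. Without a filter on low values, where the median of all genes was -0.10, 2 members were called, as with replicates 2 and 3 only and with a term for the column number (846 higher and 286 lower genes). With a replicate block 3 members were called (Etv5, Dusp6 and Spry4) and 848 genes higher and 269 lower. The numbers gave no sign of pairing in replicate 2, where the deviations of the 2 genotypes correlated across genes at 0.020. In replicates 1 and 3 this correlation was 0.53 and 0.31. Control replicate 2 reached at most 0.074, with ILK-K5 replicate 3. Control replicate 3 went better with ILK-K5 replicate 2 (0.50) than with ILK-K5 replicate 3. The authors state that littermates served as controls, but which libraries share a litter is not given in the sources used here. When single libraries were left out, 217 to 554 genes were higher and 32 to 93 lower, 1 to 2 members were called, and their median lay between 0.72 and 1.17. Those that moved both counts most were the fits without control replicate 2 (312 higher and 36 lower) and without ILK-K5 replicates 1 (255 and 39), 2 (217 and 32) and 3 (242 and 40). The log2 fold change of Dusp4, -0.10 with all libraries, ran from -0.83 to 1.0 when single libraries were left out, was above 0 without control replicate 1 (1.0) and without ILK-K5 replicate 1 (0.14), was 1.24 with replicates 2 and 3 only, and was -0.95 in edgeR and -1.0 in DESeq2. That of Dusp5, 1.3 with all libraries, ran from 0.47 to 2.42 when single libraries were left out. The causes were not tested. Spry4, Dusp4, Dusp5 and Etv4 had the fewest reads of the members, each under 100 in every library.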
